A study of Mus musculus with 20 samples.

Results

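Chemokines are small secreted proteins that guide the movement of leukocytes, and they act through receptors that couple to G proteins on the cells they attract. The chemokine and chemokine receptor genes described here are the rows of the liver count table whose symbol names a Ccl, Cxcl, Ccr or Cxcr gene, or is Cx3cl1, Cx3cr1, Xcl1 or Xcr1, with pseudogenes left out and at least 20 counts in all libraries together. This gave 45 genes of 55487 rows, of which 29 encode ligands and 16 encode receptors. Of the 63 rows with such a symbol, 1 was annotated as a pseudogene and 17 were under the minimum. The rule used names and this minimum of counts, and no difference between diets.

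Liver RNA was sequenced from 20 female C57BL/6J mice, 28 weeks old, with 1 library per mouse. The 5 mice of the Chow group were fed chow throughout. The other groups were fed a high-fat diet (HFD) from 8 weeks of age and then, for 10 weeks, an isocaloric HFD in which 50% of the protein came from fishmeal made of salmon by-products (Fishmeal, 5 mice), from salmon filet (Salmon, 6 mice) or from beef (Beef, 4 mice). All mice were of 1 strain and 1 sex, and chow differs from the HFD in more than fat, so the comparison with chow is one between whole diets. Mouse 31 is labelled Salmon, while its column in the count table is headed Beef. With it counted as beef every group holds 5 mice, so both the column heading and the group sizes point to beef. It was kept as labelled in the main results for Salmon and Beef, which are therefore provisional. The genes called in the main test and some fold changes are also given with it counted as beef. Group ranges and medians, shares without overlap, counts by unadjusted p and the figures were not redone and hold for the labels only. The comparison of all HFD-fed mice with chow does not depend on the group of mouse 31.

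Chemokines are grouped by the spacing of their first cysteines into the C, CC and CXC classes and the fractalkine class. In liver, resident macrophages, endothelial cells and hepatocytes release them, and they set which leukocytes enter from the sinusoids. Homeostatic members such as Cxcl12 and Cxcl13 are made without inflammation and position stem cells and lymphocytes, whereas members such as Cxcl1, Ccl2, Cxcl9 and Cxcl10 are known for their induction by cytokines. The RNA came from whole tissue, so fewer cells of a type and less RNA per cell cannot be told apart in any result below.

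Each library held between 42526234 and 70266136 counted reads. Beef mouse 35 stood apart with 84.3% of its counts on protein coding genes, where the other libraries had 93.2% to 95.6%. The 5 hepatocyte markers, albumin among them, summed to 85860 to 117000 counts per 1000000 (CPM) and were present in every library, which fits the tissue label. Levels of one gene across mice are given as CPM with TMM scaling (a scaling of library sizes by the bulk of the genes), and levels of different genes are compared as transcripts per 1000000 (TPM), which divides by gene length. A gene was called at a Benjamini-Hochberg adjusted p under 0.05 in edgeR's two-sided quasi-likelihood test, adjusted over all genes tested, and the share of protein coding genes called is given as the background.

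By TPM, the 4 highest genes, all ligands, made up 79.5% of the summed mean TPM of the 45 members, and the receptors were low. Cxcl12, which retains CXCR4-bearing leukocytes and progenitors, was highest with 140.8 ± 15.95 TPM (mean ± SD over 20 mice) and lay above every other member in all 20 libraries. It took 67.9% to 81.3% of the counts on the 45 genes. Ccl9, a CC chemokine of rodents that attracts myeloid cells, followed with 50.6 ± 10.6 TPM and exceeded the next gene in 18 of 20 libraries. Cxcl9, which recruits CXCR3-bearing T cells, had 20.8 ± 15.5 TPM and exceeded Ccl6, a related macrophage chemokine with 13.0 ± 3.21 TPM, in 14 of 20 libraries. Further down the order, Cxcl1 (9.08 ± 8.31 TPM), Ccl27a (6.829 ± 1.157 TPM), Cxcl16 (6.66 ± 1.121 TPM) and Cxcl13 (4.77 ± 6.53 TPM) were not separated beyond their spread. Cxcl1 exceeded Ccl27a in 10 of 20 libraries, Ccl27a exceeded Cxcl16 in 11, and Cxcl16 exceeded Cxcl13 in 15. The spread of Cxcl13 includes its difference between diets, with means of 12.37 TPM in chow-fed and 2.24 TPM in HFD-fed mice.

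Among the receptors, Cx3cr1 (1.29 ± 0.604 TPM), which marks patrolling monocytes and some macrophages, and Ccr2 (1.01 ± 0.358 TPM), which marks inflammatory monocytes, exceeded Cxcr6 (0.639 ± 0.371 TPM), Cxcr3 (0.504 ± 0.229 TPM) and Cxcr5 (0.291 ± 0.261 TPM) in the mean. Of the 45 genes, 4 had a mean of at least 10 TPM, and all 4 were ligands. A further 14 genes, 3 of them receptors, lay between 1 and 10 TPM, and 27 genes, 13 of them receptors, lay under 1 TPM. Counts were above 0 in all 20 libraries for 34 genes. The spread between mice differed widely. Cxcl12 varied 1.56-fold in CPM between the lowest and the highest mouse, Cxcl16 1.60-fold and Ccl9 1.99-fold, whereas Cxcl9 varied 8.79-fold, Cxcl1 19.5-fold, Cxcr5 24.8-fold and Cxcl13 63.4-fold.

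**Figure D1:**
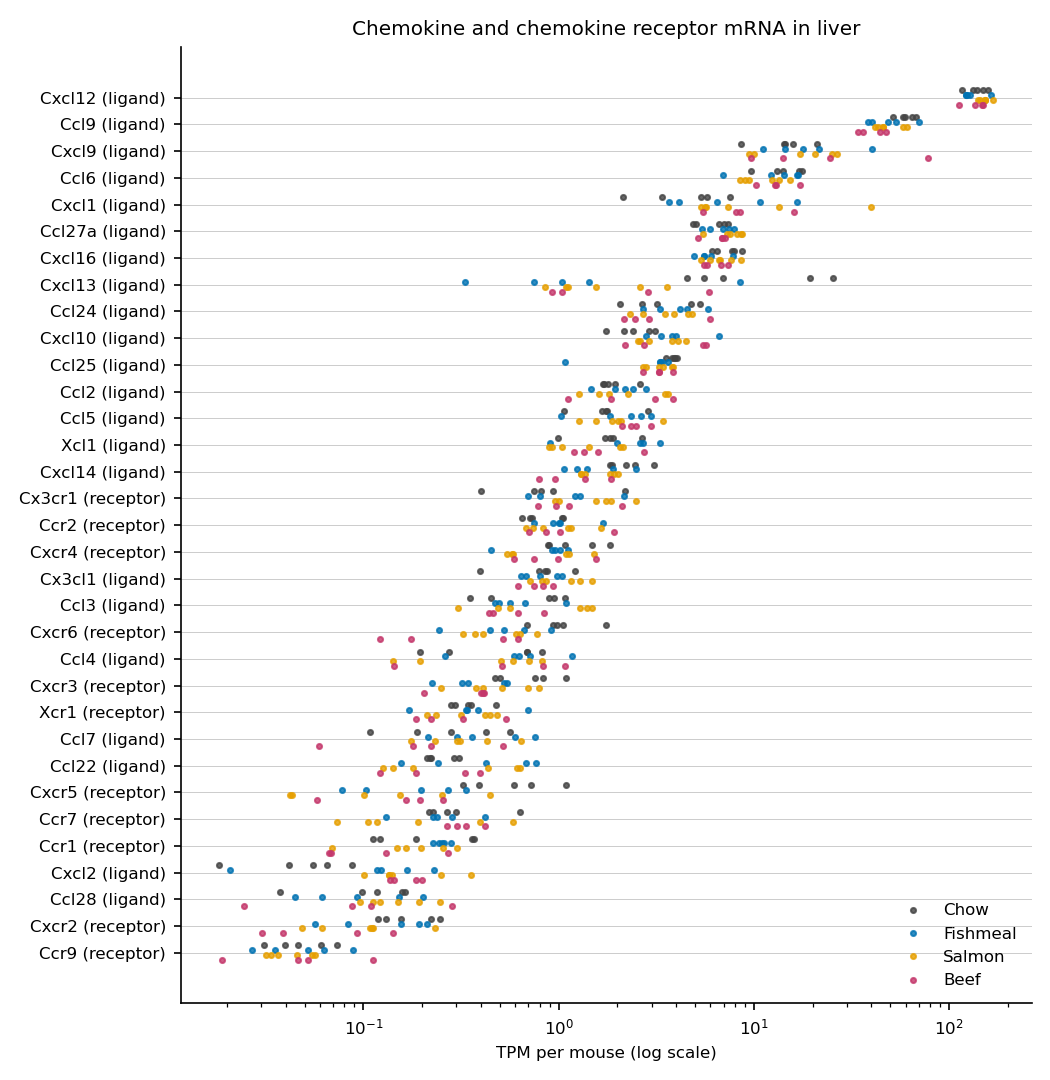
TPM of the chemokine and receptor genes described here that were detected in all 20 libraries, on a log axis, with 1 point per mouse coloured by diet and genes ordered by their mean. Cxcl12 stands apart at 113 to 169 TPM, the receptors lie in the lower part, and Cxcl13 has the widest range. The chow-fed mice lie toward its upper end, with fishmeal mouse 13 and beef mouse 35 among them.

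The first question was which of these genes differed between HFD-fed and chow-fed mice. Of the 45 genes, 32 had enough counts to be tested, 20 ligands and 12 receptors. The ligand Cxcl13 and the receptors Cxcr5 and Cxcr6 were lower and the ligand Cxcl10 was higher in HFD-fed mice, and no other member was called. These 4 of 32 genes are 12.5%, beside 10.3% of all 13702 protein coding genes tested, so the family as a whole was called about as often as the genome. The 3 lower genes compare with a background of 5.59% called lower and the 1 higher gene with 4.74% called higher. At an unadjusted p under 0.05 there were 9 of 32 genes (28.1%), beside 25.8% of the protein coding genes. The median log2 fold change was 0.05 over the 32 members and 0.0051 over all protein coding genes tested, with 19 members in the higher and 13 in the lower direction. No member separated the 5 chow-fed from the 15 HFD-fed mice without overlap, which 1.74% of protein coding genes did.

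A score of circadian clock genes moved with diet. It ran from 0.83 to 2.69 in chow-fed and from -3.52 to 1.96 in HFD-fed mice, as a difference of mean log2 CPM between clock genes of opposite phase. With the score as a covariate 0 of 32 members and 1.8% of protein coding genes were called by edgeR, with 3 members at an unadjusted p under 0.05. The log2 fold changes of the 4 genes then were -2.10 for Cxcl13 (adjusted p = 0.24), -0.90 for Cxcr5 (0.438), -0.77 for Cxcr6 (0.437) and 0.44 for Cxcl10 (0.527). The part of clock phase in these differences was not tested.

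**Figure D2:**
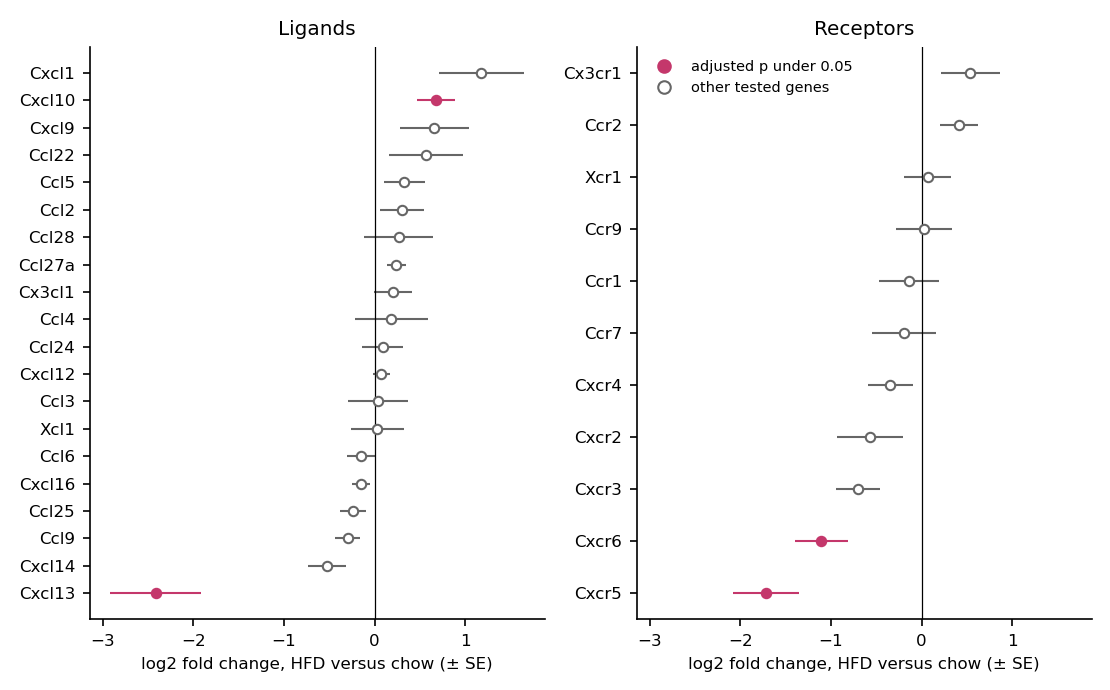
Log2 fold change of HFD-fed (15) against chow-fed (5) mice with its standard error for the ligands and receptors tested and described here, with filled points for an adjusted p under 0.05. Cxcl13, Cxcr5 and Cxcr6 lie lowest at -2.42, -1.72 and -1.11 and Cxcl10 is the one called gene on the higher side at 0.68, below Cxcl1, whose standard error is wider.

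Cxcl13 is the ligand that draws B cells and follicular helper T cells into lymphoid follicles, and Cxcr5 is its receptor on those cells. Cxcl13 (ENSMUSG00000023078, chr5:95956951-95961068 on GRCm38, plus strand) had 11.8, 2.31, 2.12, 8.33 and 3.11 CPM in chow mice 1, 2, 5, 7 and 10. It had 0.185, 3.62, 0.630, 0.350 and 0.449 CPM in fishmeal mice 12, 13, 14, 16 and 20, and 0.470, 3.14, 1.30 and 0.440 CPM in beef mice 32, 35, 39 and 40. The 6 salmon mice ran from 0.396 over a median of 0.587 to 1.74 CPM. Chow mice 1 and 7 were highest, and apart from fishmeal mouse 13 and beef mouse 35 every HFD-fed mouse was below the lowest chow-fed mouse. Cxcl13 mRNA was 5.34-fold lower in HFD-fed mice (log2 fold change -2.42 ± 0.50 SE, edgeR adjusted p = 0.00345), and lower than the chow mean in 15 of 15 mice. Without chow mouse 1 the log2 fold change was -1.93 (adjusted p = 0.0335).

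Cxcr5 (ENSMUSG00000047880, chr9:44511787-44561877, minus strand) had 0.793, 0.868, 0.435, 1.36 and 0.507 CPM in the chow mice in the same order. It had 0.169, 0.416, 0.0994, 0.367 and 0.247 CPM with fishmeal and 0.217, 0.396, 0.255 and 0.0801 CPM with beef, and the salmon mice ran from 0.0547 over a median of 0.168 to 0.537 CPM. Only salmon mouse 22 exceeded the lowest chow-fed mouse. Cxcr5 was 3.30-fold lower in HFD-fed mice (log2 fold change -1.72 ± 0.36 SE, edgeR adjusted p = 0.00409; lower in 15 of 15). This rests on few reads, from 3 to 64 counts per library. Exons of Cxcr5 share 110 of 3332 bases with Bcl9l on the other strand, and whether reads were counted by strand is not stated. Bcl9l had a log2 fold change of 0.17 ± 0.18 SE (edgeR adjusted p = 0.629).

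Markers of B cells were also lower in HFD-fed mice. All 5 B cell markers, among them Cd79a, Cd79b, Ms4a1 and Cd22, were called lower, beside 5.59% of protein coding genes. Their log2 fold changes ran from -1.40 for Cd79a to -0.71 for Cd22, and none was at 0 counts. The list was chosen with earlier results of these data known, and the study had already reported Cd22 and Cd79 as lower with HFD. Their summed level ran from 6.58 to 15.1 CPM in chow-fed and from 2.75 to 6.66 CPM in HFD-fed mice. The chow mice with the highest Cxcr5, mice 7 and 2, also had the highest marker sums, 15.1 and 13.3 CPM, whereas Cxcl13 was highest in chow mouse 1, with a marker sum of 8.25 CPM. Among HFD-fed mice, the 2 with over 3 CPM of Cxcl13, fishmeal mouse 13 and beef mouse 35, had marker sums of 6.09 and 6.66 CPM, near the top of their range. The part of B cells in the differences of Cxcl13 and Cxcr5 was not tested.

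**Figure D3:**
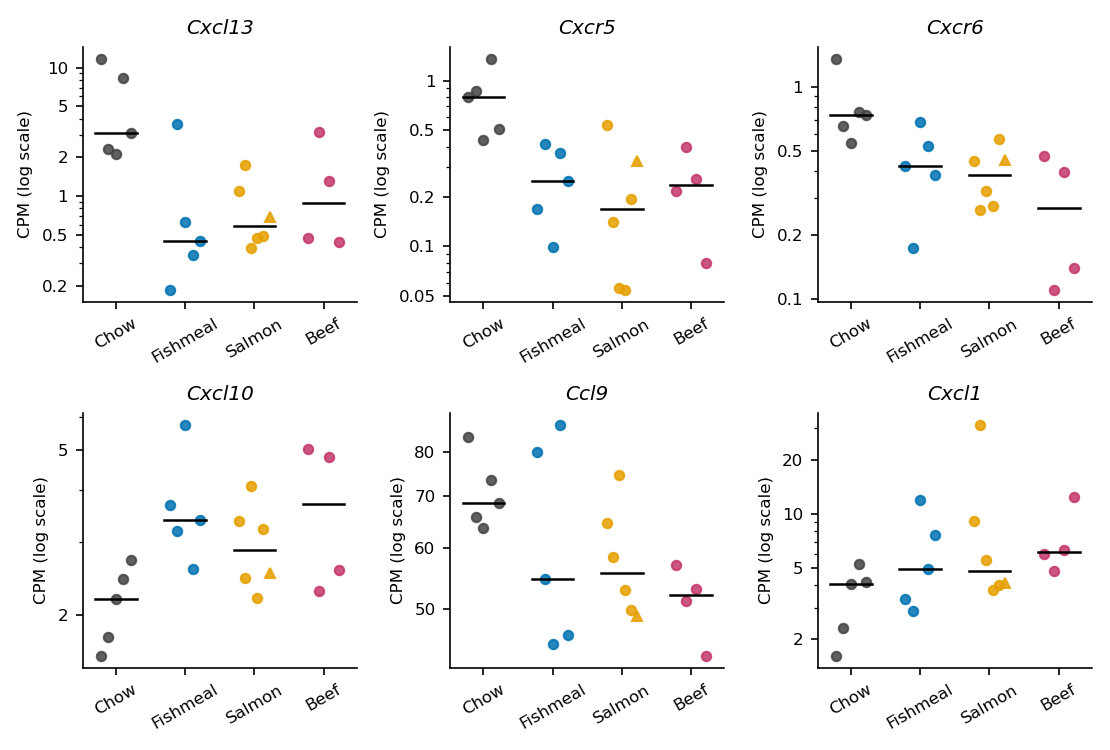
CPM of 6 members in each mouse by diet, on log axes, with black lines at the group medians and mouse 31 as a triangle. For Cxcl13, Cxcr5 and Cxcr6 the chow medians of 3.11, 0.793 and 0.735 lie above those of every HFD group, for Cxcl10 the chow median of 2.18 lies below them, and Cxcl1 has 1 salmon mouse at 31.5.

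**Figure D4:**
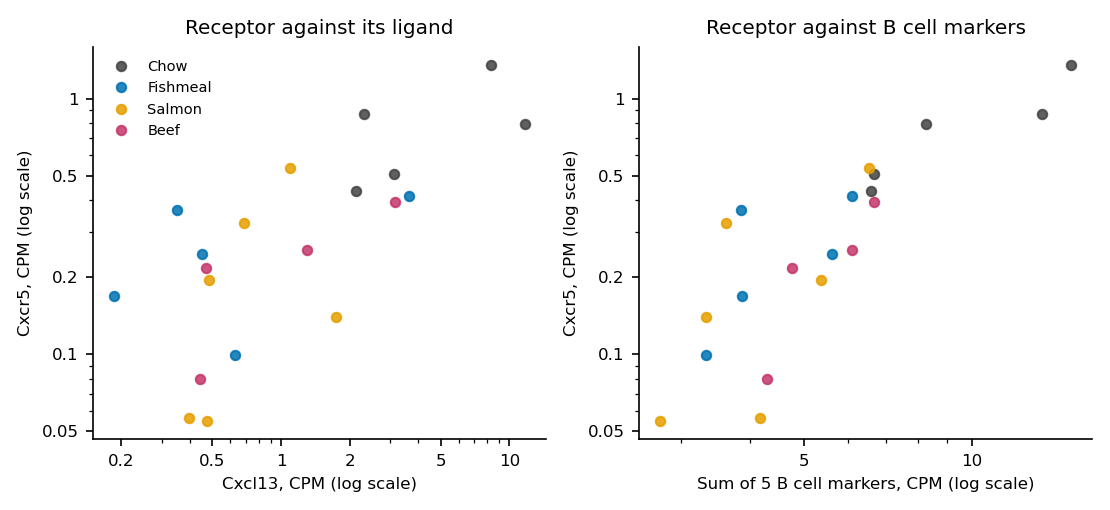
Cxcr5 in each of the 20 mice against Cxcl13 (left) and against the summed level of 5 B cell markers (right), all in CPM on log axes and coloured by diet. The chow-fed mice lie toward the upper right of both panels, with Cxcr5 at 0.435 or above, but some HFD-fed mice reach into their range. Salmon mouse 22 had Cxcr5 at 0.537, and fishmeal mouse 13 and beef mouse 35 had Cxcl13 at 3.62 and 3.14. The 4 HFD-fed mice with the lowest Cxcr5 have marker sums between 2.75 and 4.28.

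Cxcr6 is the receptor that holds T, NKT and innate lymphoid cells in the liver sinusoids by binding Cxcl16, a chemokine anchored in the membrane of endothelial cells and macrophages. Cxcr6 (ENSMUSG00000048521, chr9:123806475-123811760, plus strand) had 1.36, 0.655, 0.540, 0.763 and 0.735 CPM in the chow mice, 0.421, 0.174, 0.679, 0.525 and 0.382 CPM with fishmeal and 0.470, 0.110, 0.394 and 0.140 CPM with beef. The salmon mice ran from 0.263 over a median of 0.384 to 0.568 CPM. Chow mouse 1 stood highest, and fishmeal mouse 14 and salmon mouse 27 exceeded the lowest chow-fed mouse. Cxcr6 was 2.15-fold lower in HFD-fed mice (log2 fold change -1.11 ± 0.29 SE, edgeR adjusted p = 0.0171; lower in 15 of 15), with 5 to 89 counts per library. Without chow mouse 1 the log2 fold change was -0.83 and the adjusted p was 0.122. Its ligand Cxcl16 had 8.58 ± 1.06 CPM in chow-fed (SD, n = 5) and 7.73 ± 1.04 CPM in HFD-fed mice (n = 15). The difference, -0.15 ± 0.10 SE on the log2 scale, was not called (edgeR adjusted p = 0.38). Exons of Cxcl16 share 552 of 3021 bases with Zmynd15 on the other strand, so some of its reads may belong to that gene. Zmynd15 had a log2 fold change of -0.02 ± 0.17 SE (edgeR adjusted p = 0.957).

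Cxcr3, the receptor of Cxcl9 and Cxcl10 on activated T cells and NK cells, had 0.483 ± 0.149 CPM in chow-fed and 0.294 ± 0.102 CPM in HFD-fed mice. Its log2 fold change of -0.70 ± 0.24 SE was not called (edgeR adjusted p = 0.0695), although 14 of 15 HFD-fed mice lay below the chow mean. Some markers of the cells that carry Cxcr6 and Cxcr3 also moved with diet. Of 7 T cell markers tested, 6 were in the lower direction and 2, Cd4 and Cd3d, were called lower, and the summed level of the 8 T cell markers was 4.01 to 6.13 CPM in chow-fed and 1.91 to 4.85 CPM in HFD-fed mice. Of 5 NK cell markers, 4 were in the lower direction and 2, Klrb1c and Prf1, were called lower, while Ncr1 had a log2 fold change of 0.45 ± 0.30 SE. The NK cell sums were 2.16 to 2.90 CPM in chow-fed and 1.01 to 2.56 CPM in HFD-fed mice, and no marker of either list was at 0. Over all protein coding genes tested, 5.59% were called lower. These lists too were chosen with earlier results of these data known. The part of these cells in the differences of Cxcr6 and Cxcr3 was not tested.

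Cxcl10, an interferon-induced chemokine for CXCR3-bearing cells, was the one member called higher. Cxcl10 (ENSMUSG00000034855, chr5:92346638-92348889, minus strand) had 1.59, 1.77, 2.18, 2.44 and 2.71 CPM in the chow mice, 3.69, 3.18, 5.77, 2.57 and 3.39 CPM with fishmeal and 5.04, 2.29, 4.83 and 2.56 CPM with beef. The salmon mice ran from 2.19 over a median of 2.87 to 4.09 CPM. The groups overlapped, but all 15 HFD-fed mice lay above the chow mean of 2.14 CPM. Cxcl10 was 1.60-fold higher (log2 fold change 0.68 ± 0.21 SE, edgeR adjusted p = 0.046). The call was near the threshold: it held in 7 of 20 fits made without 1 mouse each, and the adjusted p was 0.0502 with upper quartile scaling, 0.0615 without a filter on low counts and 0.134 with limma on log2(TPM + 1). Exons of Cxcl10 share 133 of 2252 bases with Art3 on the other strand, which had a log2 fold change of -0.34 ± 0.15 SE (edgeR adjusted p = 0.162).

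Cxcl9, induced by interferon gamma and also a ligand of Cxcr3, had 17.2 ± 4.78 CPM in chow-fed and 27.2 ± 20.4 CPM in HFD-fed mice. Its log2 fold change of 0.66 ± 0.38 SE was not called (edgeR adjusted p = 0.306), and 2 mice set much of the HFD mean, beef mouse 32 with 92.6 CPM and fishmeal mouse 14 with 46.8 CPM. The interferon pathway genes Irf1 (log2 fold change 0.11 ± 0.08 SE) and Irf7 (0.09 ± 0.22 SE) were not called.

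Promoter sequence is shown for Cxcl10 and Ccl9, the called members whose RefSeq promoter (GRCm38.p6, 250 bases before to 50 bases after the start) holds 1 of 2 motifs searched on both strands, an NF-kB type motif and the interferon-stimulated response element (ISRE). In the 250 bases printed for each, 5′ to 3′ on the gene's strand, the match is in capitals. A single fixed pattern was searched for each motif, so looser forms of either may be present and are not marked.
Cxcl10, chr5:92348890-92349139, minus strand: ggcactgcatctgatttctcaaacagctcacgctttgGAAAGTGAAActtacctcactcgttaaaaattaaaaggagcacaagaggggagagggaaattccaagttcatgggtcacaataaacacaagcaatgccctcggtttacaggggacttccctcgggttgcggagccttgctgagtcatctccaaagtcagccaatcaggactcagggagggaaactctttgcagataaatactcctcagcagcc
Ccl9, chr11:83578637-83578886, minus strand: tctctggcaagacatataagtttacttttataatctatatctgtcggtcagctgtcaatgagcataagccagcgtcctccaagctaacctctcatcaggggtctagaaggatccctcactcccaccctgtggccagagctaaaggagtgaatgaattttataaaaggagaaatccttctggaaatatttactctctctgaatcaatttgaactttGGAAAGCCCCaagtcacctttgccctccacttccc
The match in Cxcl10, to the ISRE, lies 213 to 204 bases before the start, and that in Ccl9, to the NF-kB type motif, lies 35 to 26 bases before it on the opposite strand. Of the 34 members with a promoter in the table, the NF-kB type motif was found in 4 (Ccl9, Ccr3, Cxcl1 and Cxcl2), and in 1.89% of all 27025 genes. The ISRE was found in 2 (Cxcl10 and Cxcl14), and in 3.99% of all genes. A match is a description of these letters and not a site shown to be bound.

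Ccl9 (ENSMUSG00000019122, chr11:83572919-83578636, minus strand) had 83.5, 65.9, 63.6, 73.4 and 68.5 CPM in the chow mice, 79.9, 54.7, 45.1, 86.7 and 46.2 CPM with fishmeal and 57.0, 51.3, 53.2 and 43.5 CPM with beef. The salmon mice ran from 49.0 over a median of 55.7 to 74.6 CPM. All 4 beef mice lay below the lowest chow-fed mouse, while fishmeal mouse 12 lay within the range of the chow-fed mice and fishmeal mouse 16 above it. Over all HFD-fed mice the log2 fold change was -0.30 ± 0.13 SE and not called (edgeR adjusted p = 0.172). Ccl9 transcripts hold stretches of at least 100 bases that are at least 95% identical to 12 other genes, such as Git2 (96.1% over 154 bases), so some of its reads may fit more than 1 gene. Ccl6, its neighbour in the same cluster on chromosome 11, had a log2 fold change of -0.15 ± 0.16 SE (edgeR adjusted p = 0.627). Ccr1, a receptor for both, was at 0.204 ± 0.0926 TPM and had a log2 fold change of -0.14 ± 0.33 SE. Of 6 Kupffer cell markers, which mark the resident macrophages known to express these genes, 5 were in the lower direction and 0 were called. Their median log2 fold change was -0.349, and the smallest p was that of Timd4 (-0.77 ± 0.26 SE, edgeR adjusted p = 0.0599). The sums were 157.2 to 436.5 CPM in chow-fed and 156.5 to 312.7 CPM in HFD-fed mice.

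Cxcl1, a neutrophil chemokine also made by hepatocytes, had the largest positive log2 fold change of the tested members, 1.18 ± 0.47 SE, and was not called (edgeR adjusted p = 0.12). It had 1.62, 2.31, 4.08, 5.28 and 4.20 CPM in the chow mice, 3.37, 2.88, 11.9, 4.92 and 7.62 CPM with fishmeal and 5.96, 4.81, 6.26 and 12.5 CPM with beef. The salmon mice ran from 3.79 over a median of 4.84 to 31.5 CPM, the last in mouse 23, without which the log2 fold change was 0.83 (adjusted p = 0.122). Its receptor Cxcr2 had a log2 fold change of -0.57 ± 0.37 SE (edgeR adjusted p = 0.365). Cxcr2 was highest in chow mouse 1 at 0.305 CPM and salmon mouse 23 at 0.298 CPM, and its transcripts share long repeat-like stretches with 77 other genes. Of the 7 neutrophil markers only 2 had enough counts to test and 0 were called. Their sums were 1.15 to 2.52 CPM in chow-fed and 0.264 to 2.65 CPM in HFD-fed mice, with the highest sum in salmon mouse 23, the mouse with the highest Cxcl1. The part of neutrophils was not tested. Cxcl2, a close relative of Cxcl1, had too few counts for the main test (121 in all) and is named here after its values were seen. It ran from 0.0153 to 0.0655 CPM in chow-fed and from 0.0175 to 0.269 CPM in HFD-fed mice, and in the fit without a filter on low counts it was called higher (log2 fold change 1.62 ± 0.43 SE, edgeR adjusted p = 0.0288), as one of 6.4% of protein coding genes called in either direction there.

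The monocyte axes were in the higher direction without a call. Ccr2, which lets monocytes leave the bone marrow and enter inflamed liver, had 2.17 ± 0.400 CPM in chow-fed and 2.89 ± 0.972 CPM in HFD-fed mice (log2 fold change 0.41 ± 0.21 SE, edgeR adjusted p = 0.233). Its ligand Ccl2 had a log2 fold change of 0.30 ± 0.24 SE (edgeR adjusted p = 0.48). Cx3cr1, the fractalkine receptor of patrolling monocytes and of some resident macrophages, had 1.73 ± 1.08 CPM in chow-fed and 2.51 ± 1.08 CPM in HFD-fed mice (log2 fold change 0.54 ± 0.32 SE, edgeR adjusted p = 0.325). Chow mouse 2 with 3.59 CPM stood above the other chow-fed mice, which had at most 1.57 CPM, and without it the log2 fold change was 0.99 (adjusted p = 0.0737). The ligand Cx3cl1 had a log2 fold change of 0.21 ± 0.21 SE. Of the 7 monocyte and monocyte-derived macrophage markers, 5 were in the lower and 2 in the higher direction. Trem2 was called higher (1.44 ± 0.35 SE) and Cd9 lower (-1.20 ± 0.16 SE). The sums were 24.3 to 52.4 CPM in chow-fed and 17.6 to 28.4 CPM in HFD-fed mice.

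Ligands known mainly from tissue cells were not called. Cxcl12 had 438.9 ± 43.7 CPM in chow-fed and 462.9 ± 58.7 CPM in HFD-fed mice. Its log2 fold change was 0.08 ± 0.10 SE (edgeR adjusted p = 0.682), and that of its receptor Cxcr4 was -0.35 ± 0.25 SE (adjusted p = 0.424). Cxcl14, a chemokine of epithelia, had 1.61 ± 0.308 CPM in chow-fed and 1.118 ± 0.392 CPM in HFD-fed mice, with 14 of 15 HFD-fed mice below the chow mean (log2 fold change -0.53 ± 0.21 SE, edgeR adjusted p = 0.115). Without fishmeal mouse 12, the highest of all at 2.23 CPM, the adjusted p was 0.0181. Ccl25, known for drawing Ccr9-bearing lymphocytes to the gut, had a log2 fold change of -0.24 ± 0.14 SE (edgeR adjusted p = 0.329). It shares 204 of 7445 exonic bases with Elavl1 on the other strand, which was called lower (-0.32 ± 0.08 SE, edgeR adjusted p = 0.013). Ccl27a, known from skin-homing T cells, had a log2 fold change of 0.24 ± 0.11 SE (edgeR adjusted p = 0.159), and its transcripts are 99.3% identical to Ccl27b over 425 bases. Members of the T cell and dendritic cell axes, Ccl5, Ccl3, Ccl4, Ccr7, Ccl22, Xcl1 and Xcr1, had log2 fold changes between -0.20 for Ccr7 and 0.57 for Ccl22, with none called. Of the other tested members, Ccl24, Ccl28 and Ccr9 had log2 fold changes of 0.09, 0.27 and 0.03.

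The 13 members without enough counts to test were Ccl7, Ccl8, Ccl11, Ccl12, Ccl17, Ccl21a, Ccl27b, Cxcl2, Cxcl5, Ccr3, Ccr4, Ccr6 and Cxcr1, with 21 to 121 counts in all 20 libraries together. Ccl21a had 16 of its 25 counts in fishmeal mouse 13, and near-identical copies of it exist, so its counts are uncertain. Ccr6, with 56 counts in all, differed in the direction opposite to Cxcl2. It ran from 0.0175 to 0.1966 CPM in chow-fed (mean 0.1155) and from 0 to 0.1254 CPM in HFD-fed mice (mean 0.0272). Ccr6 too was picked after its values were seen. Among the 32 members tested in HFD versus chow, only Cxcr2 reached the count filter in fewer than 5 HFD libraries, with 4. None of the 4 members called there passed the filter through the chow libraries alone. This was not examined for the single diets. Cxcr5 in some mice of each HFD group, and Cxcr6 in beef mice 35 and 40, lay under the pooled comparison's cutoff of 0.179 CPM. With single diets these 2 genes may have passed through the chow libraries.

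Each HFD group was next compared with the same 5 chow-fed mice, so the 3 comparisons share their controls and are given side by side. With fishmeal, 0 of 32 members were called by edgeR, beside 3.5% of protein coding genes. At an unadjusted p under 0.05 there were 5 members, beside 17.7%. DESeq2 called Cxcl10 and Cxcr5, beside 7.48%, and limma called 0, beside 1.93%. With salmon filet, 1 of 31 was called, Cxcl13, beside 4.36% of protein coding genes, and 8 had an unadjusted p under 0.05, beside 22.3%. With beef, 1 of 31 was called, Ccl9, beside 2.53% of protein coding genes, and 9 had an unadjusted p under 0.05, beside 17.9%. DESeq2 called Cxcl13, Cxcr5 and Cxcr6 with salmon filet, beside 9.28%, and Ccl9, Cxcl1, Cxcl14, Cxcr5 and Cxcr6 with beef, beside 6.88%. With mouse 31 counted as beef, Cxcl13 was again the one member called with salmon filet, and Ccl9 and Cxcr5 were called with beef, beside 4.57% and 2.97% of protein coding genes.

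Cxcl13 had log2 fold changes of -2.36 ± 0.75 SE with fishmeal (edgeR adjusted p = 0.116), -2.75 ± 0.51 SE with salmon filet (0.0124) and -2.06 ± 0.68 SE with beef (0.145). Its levels did not overlap between the 6 salmon and 5 chow mice, as for 5.05% of protein coding genes. Cxcr5 had -1.59 ± 0.41 SE (edgeR adjusted p = 0.0539), -1.83 ± 0.49 SE (0.0511) and -1.75 ± 0.45 SE (0.0681) in the same order, and -1.63 ± 0.40 SE with beef when mouse 31 was counted there (0.0473). Cxcr6 had -0.91 ± 0.35 SE (edgeR adjusted p = 0.199), -1.05 ± 0.28 SE (0.0501) and -1.53 ± 0.44 SE (0.0928). Each of these genes was therefore in the lower direction with all 3 protein sources, and most single-diet values missed the threshold.

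Cxcl10 had log2 fold changes of 0.79 ± 0.23 SE with fishmeal (edgeR adjusted p = 0.0821), 0.49 ± 0.19 SE with salmon filet (0.159) and 0.78 ± 0.27 SE with beef (0.161). Ccl9 had -0.19 ± 0.18 SE (edgeR adjusted p = 0.657), -0.28 ± 0.11 SE (0.18) and -0.48 ± 0.11 SE (0.0477). With mouse 31 counted as beef, the beef value was -0.49 ± 0.10 SE (edgeR adjusted p = 0.0233). The beef call for Ccl9 was otherwise close to the threshold: of 9 fits made without 1 mouse each, it held in that without beef mouse 32, and the adjusted p rose to 0.145 without mouse 40. Against chow, beef separated 5 of 31 members without overlap (Ccl9, Cxcl14, Cxcr3, Cxcr5 and Cxcr6, all lower), beside 8.39% of protein coding genes, and fishmeal separated 1 of 32 (Cxcr5), beside 6.32%. Mouse 31 also lay below every chow-fed mouse for the 5 genes separated by beef, with 49.0, 0.92, 0.25, 0.33 and 0.45 CPM in the order listed.

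**Figure D5:**
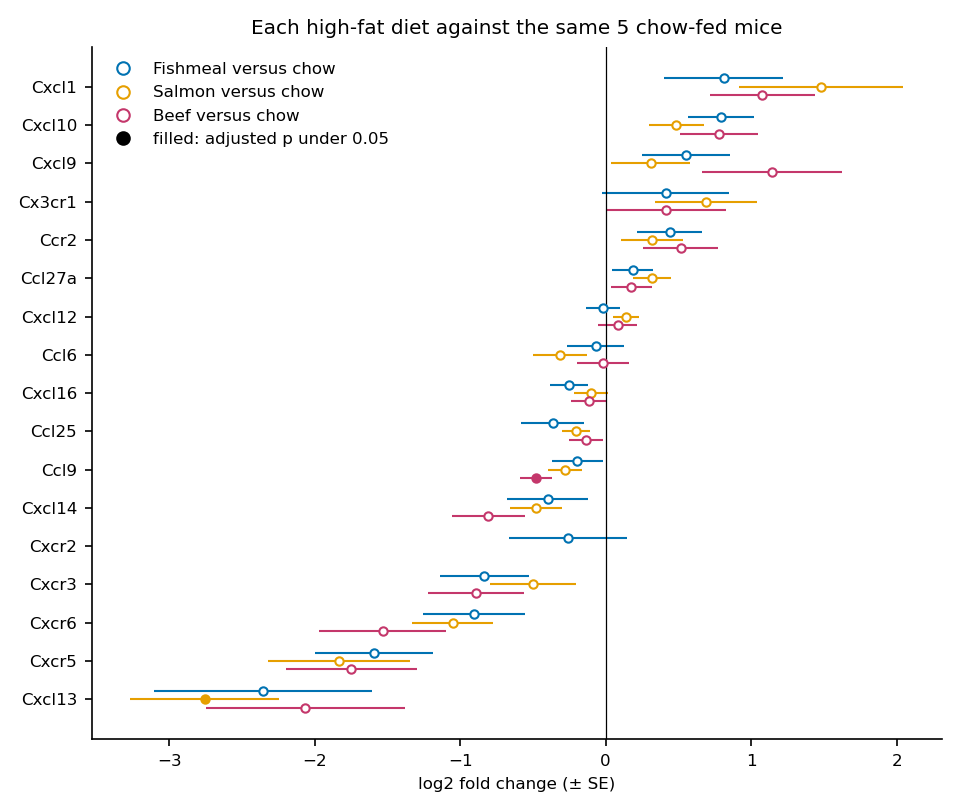
Log2 fold change with its standard error of the 17 named members in Fishmeal (5 mice), Salmon (6) and Beef (4), each against the same 5 chow-fed mice, with filled points for an adjusted p under 0.05. The diets give overlapping values for most genes, with Cxcl13, Cxcr5 and Cxcr6 on the lower and Cxcl1 and Cxcl10 on the higher side in all 3, and filled points are seen for Cxcl13 with salmon filet and Ccl9 with beef, while Cxcr2 had enough counts to test with fishmeal only.

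Between the protein sources no member was called by edgeR. Fishmeal against salmon filet had 0 of 31 called beside 0.163% of protein coding genes, fishmeal against beef 0 of 31 beside 0.00744%, and salmon filet against beef 0 of 30 beside 0% of protein coding genes. DESeq2 also called 0 in each, beside 0.483%, 0.156% and 0.00744%, and limma called 0, beside 0.19%, 0% and 0%. At an unadjusted p under 0.05 there were 1, 1 and 0 members, beside 4.23%, 1.91% and 3.5% of protein coding genes. These were Xcl1, higher with fishmeal than with salmon filet (log2 fold change 0.75 ± 0.34 SE, edgeR adjusted p = 0.999), and Ccr1, higher with fishmeal than with beef (0.92 ± 0.40 SE, edgeR adjusted p = 1). Few genes of any kind were called between these diets, and a missed threshold does not show that the levels were alike.

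Whether a ligand and its receptor varied together was examined within the 15 HFD-fed mice for 13 known pairs, on log2(CPM + 0.1). No pair passed after adjustment over the 13 (permutation tests with 100000 permutations). By Pearson's r the strongest was Xcl1, a ligand of T and NK cells, with Xcr1, its receptor on cross-presenting dendritic cells (Pearson's r = 0.702, permutation p = 0.00393, adjusted 0.0511; Spearman's rho = 0.664, permutation p = 0.00894, adjusted 0.0581), with r = 0.61 without the 2 mice farthest from the median of Xcl1 and 0.768 after centring on each diet. By Spearman's rho the strongest was Ccl25 with Ccr9 (rho = 0.686, permutation p = 0.00655, adjusted 0.0581), with r = 0.397 (permutation p = 0.152, adjusted 0.308) and r = 0.50 without the 2 farthest mice. Cx3cl1 with Cx3cr1 had r = 0.654 (permutation p = 0.00902, adjusted 0.0586) and rho = 0.571 (permutation p = 0.0283, adjusted 0.123), and r = 0.60 without the 2 farthest mice. Cxcl13 with Cxcr5 had r = 0.489 (permutation p = 0.0637, adjusted 0.276) and rho = 0.471 (permutation p = 0.0778, adjusted 0.21). Its r fell to 0.25 without the 2 farthest mice, so its size depended in part on them, and was 0.518 after centring on each diet. Cxcl16 with Cxcr6 had r = -0.209 (permutation p = 0.453, adjusted 0.589) and rho = -0.164 (permutation p = 0.559, adjusted 0.674).

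Other genes of the pathway were described from fixed lists for HFD versus chow, where 10.3% of all protein coding genes tested were called. Of 10 atypical receptors, platelet chemokines and related genes, which scavenge chemokines or act beside them, all were tested and 0 were called (edgeR, 2 at an unadjusted p under 0.05), with a median log2 fold change of -0.01. The nearest were Rarres2, which encodes the attractant chemerin (0.37 ± 0.14 SE, adjusted p = 0.0999), and Ackr2, a scavenger of CC chemokines (-0.34 ± 0.16 SE, adjusted p = 0.202). Of 17 signal transduction genes 0 were called (edgeR, 2 at an unadjusted p under 0.05), with a median of -0.05 and the lowest value for Pik3cg, the leukocyte phosphoinositide kinase downstream of these receptors (-0.50 ± 0.17 SE, adjusted p = 0.0591). Of 17 inducers, 13 were tested and 1 was called, with a median of 0.03, and Il17a was at 0 counts. The called gene was Il1b, a cytokine that induces Cxcl1 and Ccl2, which was lower in HFD-fed mice (log2 fold change -0.67 ± 0.18 SE, edgeR adjusted p = 0.0178; lower in 15 of 15). It ran from 1.88 to 4.55 CPM in chow-fed and from 1.121 to 2.04 CPM in HFD-fed mice, and without chow mouse 1 its log2 fold change was -0.36 (adjusted p = 0.189).

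The remaining marker lists give the cell types these livers held. Over all protein coding genes, 10.3% were called in HFD versus chow. Of 6 sinusoidal endothelial markers 5 were in the lower direction and 2, Clec4g and Fcgr2b, were called lower. Stab2 was in the higher direction (log2 fold change 0.23 ± 0.11 SE, edgeR adjusted p = 0.209). The sums were 229.3 to 261.8 CPM in chow-fed and 187.6 to 261.7 CPM in HFD-fed mice. Of 5 cholangiocyte markers 4 were in the lower direction and Sox9 was called lower, while Cftr had a log2 fold change of 0.30 ± 0.35 SE. The sums were 9.74 to 16.2 and 4.69 to 13.3 CPM. All 5 red blood cell markers were in the higher direction and Alas2 was called, with sums of 73.0 to 212.2 and 85.3 to 479.8 CPM. The dendritic cell list, which holds the member Xcr1, had 0 of 6 called, with sums of 6.84 to 10.0 and 6.48 to 12.8 CPM. The stellate cell list had 0 of 6 called, with sums of 349.3 to 437.2 and 295.9 to 481.8 CPM, and the hepatocyte list 0 of 5.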

How the data were processed

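Strand-specific mRNA libraries from the livers of 20 mice were sequenced. The authors trimmed and mapped the reads (HISAT2 1.2.1 per the labels) and deposited raw counts per Ensembl gene (featureCounts 1.4.6-p1) and, in a second table, TPM. Strand and multi-mapping settings are not given in the sources used here, and the labels print a human build for these mouse data. Positions are from GENCODE M21 on GRCm38.

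Groups follow the sample labels. 1 member and some list genes are counted but not reported by name here. Members and lists were chosen with earlier results of these data known. No 2 libraries of a group were alike within counting noise (41 pairs, chi-square per gene of at least 33.9). The group tests set a difference between groups against the spread between mice, with each mouse taken as independent. The study weighed food by cage, but the labels give no cage, so cage could not be included. Counts were tested with edgeR 4.0.16 in R 4.3.3 (TMM scaling, quasi-likelihood test after filterByExpr with min.count 10), 2 groups at a time, with HFD-fed mice pooled for the first comparison. Alternatives were DESeq2 1.42.0, limma 3.58.1 on log2(TPM + 1) for genes whose mean TPM reached 0.1, other scalings, no filter, all 4 groups fitted, a clock covariate, mouse 31 as beef, and each mouse left out. Similar transcripts were sought with blastn 2.17.0. The tools were tested on simulated data.

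Named are members called in any comparison, those without overlap between chow and HFD, the 8 highest by TPM, the next 6 by p in HFD versus chow, and called genes of the pathway lists. Other genes named outside the members' full account were chosen after their values were seen. Marker lists cover hepatocytes, T, B and NK cells, Kupffer cells, monocytes, dendritic cells, neutrophils, endothelium, stellate cells, cholangiocytes and red blood cells.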

Additional observations from a re-analysis of the deposited data

Results flagged for a closer look

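Of 68 groups of 4 to 6 mice examined for the 17 named members, 7 held 1 mouse whose CPM stood apart from the others of its group by Dixon's test at 95%, which chance alone would give in about 1 of 20 groups. Ccl25 was 3.94 CPM in fishmeal mouse 12, against 9.15 to 11.1 in the other fishmeal mice. Ccl27a was 4.94 CPM in fishmeal mouse 14, against 6.67 to 7.00. Cxcl13 was 3.62 CPM in fishmeal mouse 13, against 0.185 to 0.630. Ccr2 was 5.09 CPM in beef mouse 32, against 2.22 to 2.69, and the same mouse had the highest Cxcl9. Cxcl1 was 31.5 CPM in salmon mouse 23, against 3.79 to 9.19, and Cxcr2 in the same mouse was 0.298 CPM, against 0.0537 to 0.130. Cxcr6 was 1.36 CPM in chow mouse 1, against 0.540 to 0.763.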

How the results depend on the processing

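In HFD versus chow, 4 members were called, and 0 with the clock score as a covariate, the one planned setting that ended all 4 calls. Leaving out 1 mouse gave 2 to 4 calls, the lowest without chow mouse 1, where Cxcr6 and Cxcl10 were lost. Calls over all genes were also fewest without that mouse, 816 of 13766 protein coding genes, beside 1415 of 13702 in the main fit. Cxcl13 and Cxcr5 were called in 20 of 20 such fits, Cxcr6 in 19 and Cxcl10 in 7. In fishmeal versus chow, 0 were called, 2 by DESeq2 (7.48% of protein coding genes), 1 with no filter on low counts (2.94%), and 0 to 1 with 1 mouse left out. In salmon filet versus chow, 1 was called, 3 by DESeq2 (9.28%), 2 with no filter (3%) or with all 4 groups fitted (3.44%), and 1 to 3 with 1 mouse left out. In beef versus chow, 1 was called, 5 by DESeq2 (6.88%), 2 with mouse 31 counted as beef (2.97%), 0 with DESeq2 size factors (2.56%), upper quartile scaling (2.42%), no filter (2.29%) or limma (1.18%), and 0 to 1 with 1 mouse left out. In the fits without 1 mouse, 239 to 569 protein coding genes were called with fishmeal, 239 to 615 with salmon filet and 82 to 551 with beef. These fits tested 13352 to 13593 protein coding genes. Why the counts of members moved was not tested. Between HFD groups each alternative gave 0. No direction of a named gene reversed. No paired analysis was possible because each mouse has its own number in the labels. Counts of 3 to 64 per library limit Cxcr5, and genes under the filter could not be judged at this depth.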

Other observations

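The row of Cxcl11 is annotated as a polymorphic pseudogene and so is not counted among the members. Cxcl11 was nevertheless read at an RNA level like that of the expressed ligands, and whether it makes a protein in these mice was not measured. It had 10.6 ± 2.10 CPM in chow-fed (SD, n = 5) and 11.1 ± 2.15 CPM in HFD-fed mice (n = 15), and its mean of 7.32 TPM over all mice lay between those of Cxcl1 and Ccl27a. Its log2 fold change was 0.06 ± 0.14 SE (edgeR adjusted p = 0.852), beside 0.66 for Cxcl9 and 0.68 for Cxcl10, ligands of Cxcr3 that lie next to it on chromosome 5. In beef mouse 32 Cxcl9 was 92.6 CPM, the highest of all mice, and in fishmeal mouse 14 it was 46.8 CPM. Those mice also had the highest Ccr2 (5.09 and 4.39 CPM) and Xcr1 (0.939 and 1.19 CPM) of the 20. They were picked after their values were seen, and no test was made of them.

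Of the 45 members, 12 lie on chromosome 11, 11 of them ligands, 10 on chromosome 9, all of them receptors, and 7 on chromosome 5, all of them ligands. The called genes were spread over these, with Cxcl13 and Cxcl10 on chromosome 5, Cxcr5 and Cxcr6 on chromosome 9, and Ccl9 on chromosome 11. Members of 1 chromosome did not all move in 1 direction. On chromosome 5 Cxcl13 was called lower and Cxcl10 higher. On chromosome 9 the members with the largest positive values were Cx3cr1 (log2 fold change 0.54) and Ccr2 (0.41), beside -1.11 for Cxcr6. These genes are not all next to each other, and whether adjacent genes moved together was not tested.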
